A study of Mus musculus and Oryctolagus cuniculus and Sus scrofa with 20 samples.

Results

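Pre-leptotene and leptotene spermatocytes stand on the 2 sides of the entry into meiosis: the first pass through the last round of DNA replication, the second start to condense and pair their chromosomes. The small RNAs of these cells were compared between 1 pre-leptotene and 1 leptotene library, 2 of the 20 libraries of a study of small RNAs in male germ cells, chosen by their stage labels. Both came from testes of wild-type male C57BL/6 mice on postnatal day 9, untreated, and total RNA extracted with TRIzol was sequenced on an Illumina HiSeq instrument by the Illumina small RNA protocol. How the cells were purified, and whether they came from 1 animal or several, is not given in the sources used here. With 1 library a stage nothing has a replicate check, so values are given for these libraries without p-values, and the 95% intervals cover counting error only. In bulk libraries fewer cells of a type and less RNA per cell cannot be told apart.

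The pre-leptotene library held 13169831 reads in 604549 distinct sequences (tags), and the leptotene library 12247017 reads in 863321 tags of 17 to 41 nt. miRNAs took 46.2% of the reads in pre-leptotene and 39.3% in leptotene, and reads outside miRNAs therefore took 53.8% and 60.7%. Cultured spermatogonial stem cells (SSCs, labelled C57BL/6 although the protocol describes a C57BL/6 × DBA2 F1 male, and grown on feeder cells) and zygotene spermatocytes of day 13 mice are used only to place values.

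miRNAs are cut from hairpin precursors and guide Argonaute proteins to messages through their seed, bases 2 to 8. piRNAs are longer, are held by PIWI proteins, mostly start with uridine (T in a sequenced tag) and silence transposons in the germ line. Before the pachytene stage the mouse testis is known to make piRNAs from transposons and from the 3′ untranslated regions (3′ UTRs) of many genes. tRNAs and ribosomal RNAs also leave fragments of defined length.

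The sequences below carry the main comparisons. The first set holds mature miRNAs from RefSeq (GRCm38.p6) with the seed in capitals: the 4 most abundant in both libraries, all X-linked members of the miR-506 family, and then those whose level differed.
miR-741-3p: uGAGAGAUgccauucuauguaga
miR-871-3p: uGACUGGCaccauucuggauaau
miR-470-5p: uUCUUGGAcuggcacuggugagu
miR-743b-3p: gAAAGACAucaugcugaauaga
miR-499-5p: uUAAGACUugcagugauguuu
miR-293-3p: aGUGCCGCagaguuuguagugu
miR-292a-5p: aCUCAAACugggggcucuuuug
miR-295-3p: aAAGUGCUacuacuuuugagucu
miR-335-3p: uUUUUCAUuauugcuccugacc
miR-10a-5p: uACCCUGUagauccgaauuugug
miR-410-3p: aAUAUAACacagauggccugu

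The second set shows the most abundant 24 to 32 nt tag of genes whose exons gave many such reads, with the first base in capitals. Each lay in exons of that gene alone among GENCODE M21 transcripts (GRCm38). The first 3 were in 3′ UTRs, AU020206 is a long noncoding RNA, the Fth1 tag lay in the 5′ UTR and the histone tag in the coding sequence.
D10Wsu102e, chr10:83381475-83381501, plus strand: Taactcgagagaaaaccacacctgatg
Tmem245, chr4:56872387-56872415, minus strand: Tatccgagacctagctatagcttatacta
Abl2, chr1:156646324-156646349, plus strand: Tagagatctgcactttgtagttgaag
AU020206, chr7:75770876-75770903, minus strand: Tggaccgagacacgaatgttaatgcttt
Fth1, chr19:9982739-9982765, plus strand: Ttcaacagtgcttgaacggaacccggt
Hist1h2bb, chr13:23746784-23746808, plus strand: Ttttgaacagaatgccagagccttc

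The third set shows tags that are 5′ fragments of tRNAs. Capitals mark bases that differ from the first glycine tag, or base 22 of the valine tags.
tRNA-Gly-GCC: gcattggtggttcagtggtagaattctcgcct
tRNA-Gly-GCC, second copy: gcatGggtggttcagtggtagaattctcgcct
tRNA-Gly-CCC: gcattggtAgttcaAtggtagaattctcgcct
tRNA-Val: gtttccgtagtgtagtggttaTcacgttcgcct
tRNA-Val with G22: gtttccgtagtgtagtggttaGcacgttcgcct

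Reads of piRNA size took a larger share of the leptotene library. The share of miRNA reads differed more, in the other direction, with 46.2% in pre-leptotene and 39.3% in leptotene. Scaled to reads outside miRNAs, each ratio of this paragraph is lower by 0.18 on the log2 scale. Outside miRNAs, other hairpin reads, tRNA and rRNA, reads of 25 to 32 nt made up 13.9% of the pre-leptotene library and 19.6% of the leptotene library, a ratio of 1.41. The excess was centred on 26 and 27 nt. At 26 nt these reads made up 1.62% of the library in pre-leptotene and 2.73% in leptotene, a ratio of 1.69, and at 27 nt 2.29% and 3.71%. The ratio was 1.45 at 28 nt, 1.35 at 29 nt and 1.12 at 32 nt, whereas at 22 nt it was 0.90. Within 25 to 32 nt the highest share stood at 28 nt in pre-leptotene and at 27 nt in leptotene, and the mean length of such reads starting with T was 28.2 nt in pre-leptotene and 27.9 nt in leptotene.

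**Figure D1:**
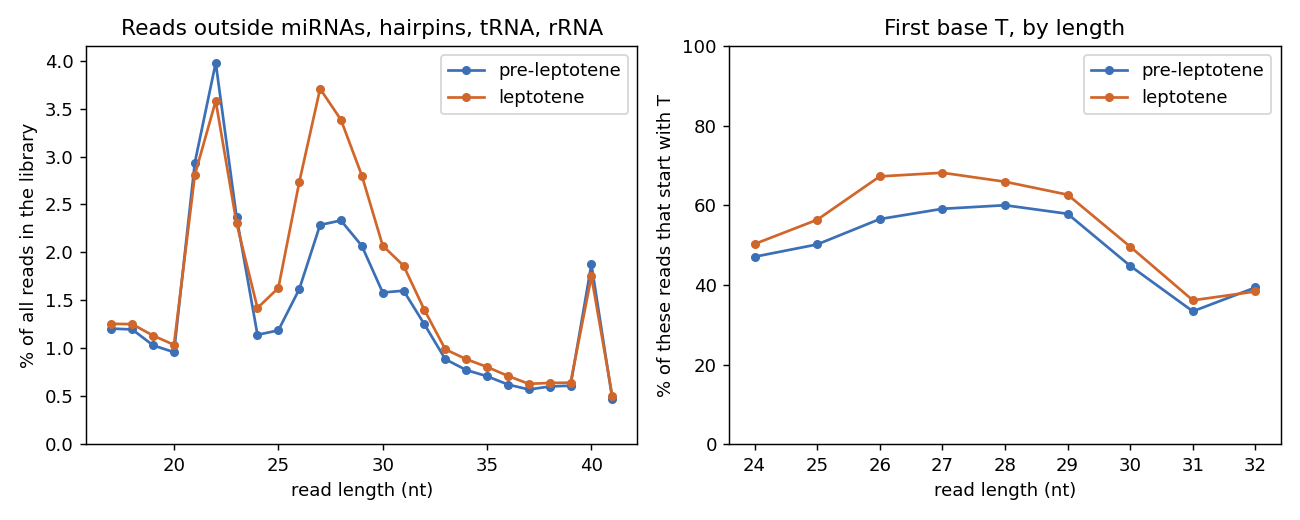
Left, share of each library taken by reads outside miRNAs, other hairpin reads, tRNA and rRNA at each length in nt; right, percent of those reads that start with T, for 24 to 32 nt. The leptotene line stands above the pre-leptotene line from 24 to 32 nt on the left, most at 26 and 27 nt, and from 24 to 31 nt on the right.

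First-base T, the usual mark of piRNAs, moved with length. Of those 25 to 32 nt reads, 51.7% started with T in pre-leptotene and 58.7% in leptotene. At 26 nt the share was 56.5% against 67.2%, at 27 nt 59.1% against 68.2%, and at 32 nt 39.4% against 38.4%. Reads of 26 to 28 nt that start with T took 3.67% of the pre-leptotene library and 6.59% of the leptotene library, a ratio of 1.80. Adenine at base 10, found in piRNAs made by reciprocal (ping-pong) cleavage, was held by 26.2% and 27.96% of the 25 to 32 nt reads. Without T at base 1 the share with adenine at base 10 was 11.3% in pre-leptotene and 9.96% in leptotene.

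The classes of 25 to 32 nt reads differed in their gain. Tags found in the transcripts of 20 or more genes took 0.497% of the pre-leptotene library and 1.05% of the leptotene library, a ratio of 2.12. Reads antisense to an exon went from 0.159% to 0.334%, a ratio of 2.10, long noncoding RNA and pseudogene exons from 0.319% to 0.607%, a ratio of 1.90, and protein-coding exons from 4.36% to 6.73%, a ratio of 1.54. Reads with no match to a transcript had a ratio of 1.30 (introns and intergenic sequence were not analysed here). Small nucleolar, nuclear and other small RNAs had a ratio of 0.949 and tRNA one of 1.07. T led 79.5% of the reads found in 20 or more genes in pre-leptotene and 80.8% in leptotene, but 65.1% and 70.6% of those in protein-coding exons.

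Among repeats, the B1 element, a short interspersed repeat, was followed through an 80 nt run joined from overlapping tags, chosen after tag values were seen. Tags of 24 to 32 nt sharing 16 nt with it summed to 11401 reads in pre-leptotene and 36558 in leptotene, a ratio of 3.45 per 1000000 of all reads. T led 69.1% of them in pre-leptotene and 74.0% in leptotene. Among the 23 such tags with at least 100 reads in a library, 20 were at least 2-fold higher in leptotene, where 23.3% of all 1979 tags of 25 to 32 nt with that many reads were. The median log2 ratio was 2.29 for the B1 tags and 0.29 for all. Since B1-like tags were taken up because some stood among the largest ratios, and many passed the filter through leptotene alone, these counts are a description. With 100 reads required in pre-leptotene, 8 of 10 B1 tags and 8.13% of all 1501 tags were 2-fold higher, with medians of 2.18 and 0.03. The same sum was 6416 reads per 1000000 in SSCs and 4295 in zygotene, against 866 in pre-leptotene and 2985 in leptotene, so the pre-leptotene library was the lowest of the 4. For single B1-like tags, the ratio of the tag and that of its 5′ end could differ. The B1-like tag with the largest ratio had 2 and 184 reads, but tags with its first 20 nt together had 6312 and 9330 (log2 0.67). A 29 nt tag outside the B1-like set had the same 20 nt sum, so this sum is not a measure of B1 sequence. A further B1-like tag had 22 and 273 reads, and its shared 5′ end 44 and 407 (3.31). The B1-related miR-1195 had 28232 and 20897 reads (−0.09 per 1000000 miRNA reads). Which further miRNAs, such as miR-3470b below, hold B1 sequence was not examined.

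Exon reads could be assigned to single genes. Counting sense tags of 24 to 32 nt in exons of 1 gene only, 1632 genes had at least 100 reads in a library. Of these, 40.1% were at least 2-fold higher in leptotene and 19 (1.16%) at least 2-fold lower, per 1000000 of all reads, with a median log2 ratio of 0.75. Many genes passed the filter through leptotene alone: of the 1086 with 100 reads in pre-leptotene 26.9% were 2-fold higher, and the median was 0.40. This summing by gene and the genes named from it were chosen after tag values were seen.

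The genes divided by the first base of their reads. Where under 40% of a gene's pre-leptotene reads started with T, 27 of 192 genes were 2-fold higher and the median log2 ratio was 0.34. Between 40% and 60% the count was 66 of 403, with a median of 0.31, and between 60% and 80% it was 213 of 518, with a median of 0.79. At 80% or more, 348 of 519 genes were 2-fold higher and 3 were 2-fold lower, with a median of 1.29. Scaled to 25 to 32 nt reads, every log2 ratio fell by 0.37, which puts the medians of both groups under 60% T below 0 and leaves 406 genes higher and 59 lower, 227 of the former with at least 80% T. Requiring the 100 reads in pre-leptotene, so that no gene entered through its leptotene level, left 2 of 138 genes 2-fold higher under 40% T, 6 of 274 between 40% and 60%, 93 of 340 between 60% and 80%, and 191 of 334 at 80% or more. The medians of these groups were 0.08, 0.03, 0.51 and 1.10. Position in the message went with the same division. In the genes with at least 80% T, 71.2% of the reads lay in 3′ UTRs in pre-leptotene and 81.6% in leptotene, and in those under 40% T, 22.2% and 25.2%, with 75.2% and 72.3% in coding sequence.

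**Figure D2:**
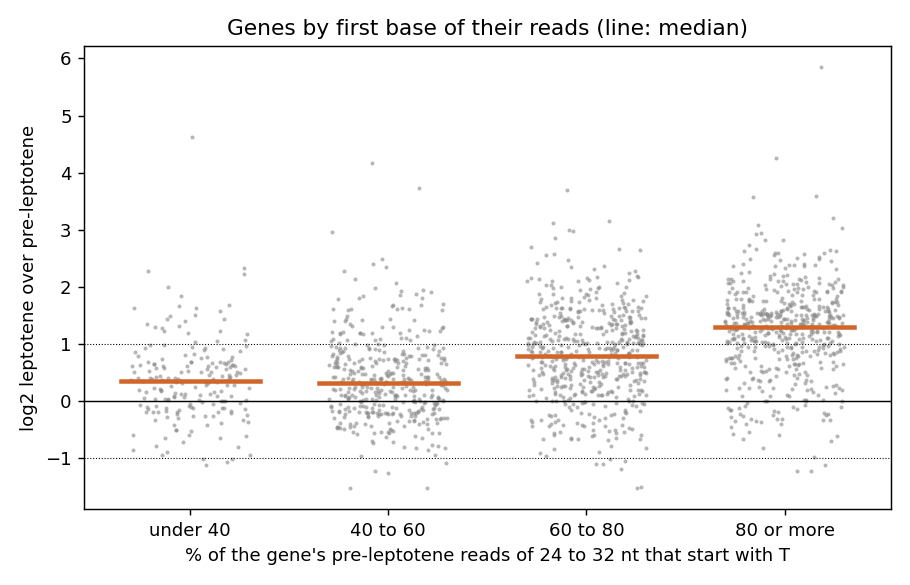
Log2 ratio of leptotene over pre-leptotene for each of the 1632 genes (points), per 1000000 of all reads, in 4 groups by the percent of the gene's pre-leptotene reads that start with T; lines are group medians and dotted lines mark 2-fold. The medians are 0.34, 0.31, 0.79 and 1.29 from left to right.

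Most of the genes with the highest counts in leptotene were higher there than in pre-leptotene. D10Wsu102e, on chromosome 10, had 5554 reads in pre-leptotene and 15047 in leptotene, a log2 ratio of 1.54, and 99.89% and 99.7% of them lay in its 3′ UTR. The tag shown above stood at 5.92 reads per 1000000 in pre-leptotene and 28.7 in leptotene. Tmem245, which encodes a membrane protein, had 3424 and 9147 reads, a log2 ratio of 1.52, with 98.7% of them in the 3′ UTR in pre-leptotene. Abl2, a tyrosine kinase gene, had 1753 and 5164 reads (log2 1.66), Rab11fip4, for an effector of the Rab11 GTPase, 1389 and 4080 (1.66), and Cbl, for a ubiquitin ligase, 1418 and 3728. Cbx5, for the heterochromatin protein HP1 alpha, had 1600 and 4007 reads (1.43) and Gabpb2 1435 and 3563 (1.42). The long noncoding RNA AU020206 had 1572 and 4102 reads, a log2 ratio of 1.49, and 1700001L05Rik 1332 and 3502 reads. T led most of these reads in pre-leptotene: 79.1% in D10Wsu102e, 89.5% in Tmem245 and 89.0% in Abl2. A pair of noncoding transcripts with as many reads but none starting with T differed less: Gm37608 had 3856 and 5569 reads (0.64), and Rmrp, the RNA of RNase MRP, 2016 and 1805 (−0.05).

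Fth1, which encodes the ferritin heavy chain, did not share this difference. It had 6745 reads in pre-leptotene, more than any other gene, and 5603 in leptotene, a log2 ratio of −0.16 (−0.21 to −0.11), although T led 87.9% and 88.5% of them. Its reads lay in the 5′ UTR (41.3% in pre-leptotene) and the coding sequence (55.2%), with 3.53% in the 3′ UTR. Its most abundant tag had 1364 and 876 reads.

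The largest ratios came from genes with few reads in pre-leptotene. Gprc5c, an orphan receptor gene, had 3 reads in pre-leptotene and 161 in leptotene (log2 5.85, 4.28 to 8.14), and its top tag had 0 and 69. Psg16 had 5 and 115 reads (4.63), Pde4c, for a cyclic AMP phosphodiesterase, 12 and 212 (4.25), and Cd93 11 and 184 (4.17). Spry4 had 10 and 124 reads, Pars2 14 and 168, Zim2 29 and 326, the noncoding Gm49116 45 and 386, Hrh1, for a histamine receptor, 13 and 144, and Setd7, for a histone methyltransferase, 13 and 107. Of the 161 Gprc5c reads in leptotene 93.8% started with T and 85.1% lay in the 3′ UTR. The lowest ratios had counts near the filter. Ezh2, the methyltransferase of Polycomb, had 8.05 reads per 1000000 in pre-leptotene and 2.78 in leptotene (log2 −1.54, −2.14 to −0.97), and Orc3, a subunit of the origin recognition complex, 109 and 35 (−1.53). Hist4h4 had 193 and 62 (−1.53), Btaf1 166 and 54 (−1.52), Sdf4 116 and 45 (−1.26) and Zbtb41 114 and 45 (−1.24). Ccdc90b and Ndufa2 were at −1.23, Lcorl at −1.20 and Hook3 at −1.14. In Ezh2 86.8% of the pre-leptotene reads were in coding sequence.

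Histone messages were followed as a family at all read lengths, since replication-dependent histones are made in S phase. This set was also chosen after the gene values were seen. Reads in exons of single Hist1 to Hist4 genes summed to 15564 in pre-leptotene and 9055 in leptotene, 1182 and 739 per 1000000, a log2 ratio of −0.68. Of the 20 histone genes with at least 100 reads in a library, 18 had a lower level in leptotene and 2 a higher one, with a median log2 ratio of −0.71. Among these, 3 were at least 2-fold lower, where over all genes counted the same way 0.79% were, and the median of all 2913 genes was 0.47. Hist1h2bb, for an H2B histone, had 2817 and 1265 reads (−1.05, −1.15 to −0.95), and the testis-specific Hist1h2ba had 1914 and 818 (−1.12). Hist1h2aa had 2026 and 1035 (−0.86), and Hist1h1a, for a linker histone, 2916 and 1937 (−0.49). Hist1h1d went the other way, with 109 and 207 reads (1.03, 0.69 to 1.38). Near-identical histone copies share reads, and tags found in several copies are not in these sums.

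**Figure D3:**
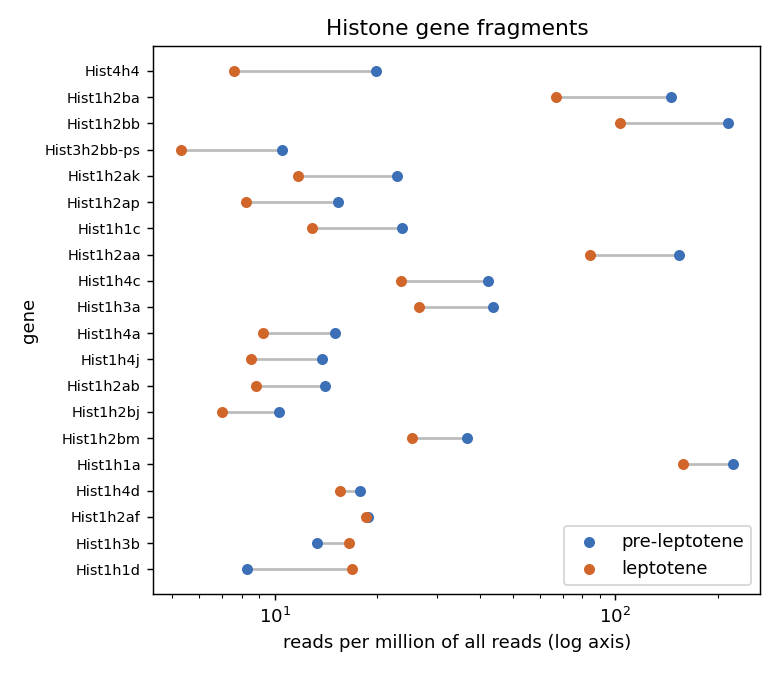
Reads per 1000000 of all reads (log axis) for the 20 histone genes with at least 100 reads, at all read lengths, in pre-leptotene (blue) and leptotene (orange). The leptotene point lies left of the pre-leptotene point for 18 genes and right of it for Hist1h3b and Hist1h1d.

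The stem-loop at the end of these messages was also searched for. Replication-dependent histone messages end in a stem-loop in place of a poly(A) tail. Tags holding GGNNNN, then TTTC or TTTA, then the reverse complement of the first 6 bases summed to 10906 reads in pre-leptotene and 5740 in leptotene, a log2 ratio of −0.82. The level in reads per 1000000 was 828 in pre-leptotene, 469 in the leptotene library, 131 in zygotene cells and 124.96 in SSCs, so the pre-leptotene library was the highest of the 4.

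Single tags of 25 to 32 nt were less often 2-fold higher in leptotene than the gene sums, and more often 2-fold lower. Of 1979 tags with at least 100 reads in a library, 461 were at least 2-fold higher in leptotene and 66 (3.34%) at least 2-fold lower. Tags that start with T made up 332 of the 461 and 33 of the 66, out of 900, with a median log2 ratio of 0.58, against 0.17 for the other 1079. These medians depended on the filter: with 100 reads required in pre-leptotene both were 0.03, and 76 of 581 tags that start with T and 46 of 920 others were 2-fold higher. The largest ratios of single tags often did not extend to tags with the same 5′ end. A 26 nt tag of Specc1l had 4 reads in pre-leptotene and 144 in leptotene (log2 5.27), whereas tags with its first 20 nt together had 78 and 251 (1.79). For Zfp773 the tag had 0 and 103 reads and the shared 5′ end 50 and 294 (2.66). In D10Wsu102e and Bcl2l13 both measures were wide apart, with 0 and 103 reads and 3 and 117 reads for the shared 5′ end.

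Most tags were seen in 1 library only. After the pre-leptotene library was thinned to 12247017 reads, it held 590559 tags against 863321, and 120416 were in both: 20.4% of the pre-leptotene tags and 13.9% of the leptotene tags. Tags found only in leptotene carried 17.8% of its reads, and those found only in pre-leptotene 11.99% of its reads. Among the classes by length and first base, piRNA-sized tags that start with T differed most. Of these the leptotene library held 294040 and the pre-leptotene library 161654, and private tags carried 52.9% of the leptotene reads in that class and 41.3% of the pre-leptotene reads. Among tags of 18 to 24 nt private tags carried 6.60% and 4.59% of the reads. With at least 10 reads, 77.1% of leptotene tags were also in pre-leptotene, and 66.5% of the 25 to 32 nt tags that start with T.

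Opposite strands were compared for 10 nt overlaps of 5′ ends, the spacing left by ping-pong cleavage. Pairs of a sense exon tag and an antisense tag of 24 to 32 nt overlapped by exactly 10 nt at 33 positions in pre-leptotene, where the other overlaps from 1 to 25 nt had a median of 12 and a highest value of 24. They were 9.94% of 332 pairs. In leptotene they were 11.03% of 1215 pairs, and the other overlaps had a median of 43 pairs and a highest value of 67. Genes with any pair numbered 121 and 288. The counts depend on the number of distinct tags, which differed between the libraries.

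miRNA levels differed far less. Levels are reads per 1000000 miRNA reads, assigned by the first 18 nt of the mature sequence, which near-identical paralogues can share. Of 212 miRNAs with at least 100 reads in a library, 178 had a log2 ratio within 0.5 of 0 and the median was −0.04. At least 2-fold higher in leptotene were 7 (3.3%), and 1 (0.472%) was at least 2-fold lower. Of the 7, miR-499-5p, miR-293-3p and miR-92a-1-5p passed the filter through their leptotene reads alone. The lower one, miR-410-3p, passed it through its pre-leptotene reads alone. These counts therefore partly follow from the filter. The 10 most abundant were the same in both libraries, led by miR-741-3p with 38.4% of miRNA reads in pre-leptotene and 40.3% in leptotene, miR-871-3p with 20.2% and 19.1%, miR-470-5p with 5.59% and 5.62%, and miR-743b-3p with 3.95% and 3.80%. They were followed by miR-99b-5p, miR-10b-5p, miR-99a-5p, miR-465a-5p, miR-7a-5p and miR-30c-5p, each between 1.56% and 2.31%.

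**Figure D4:**
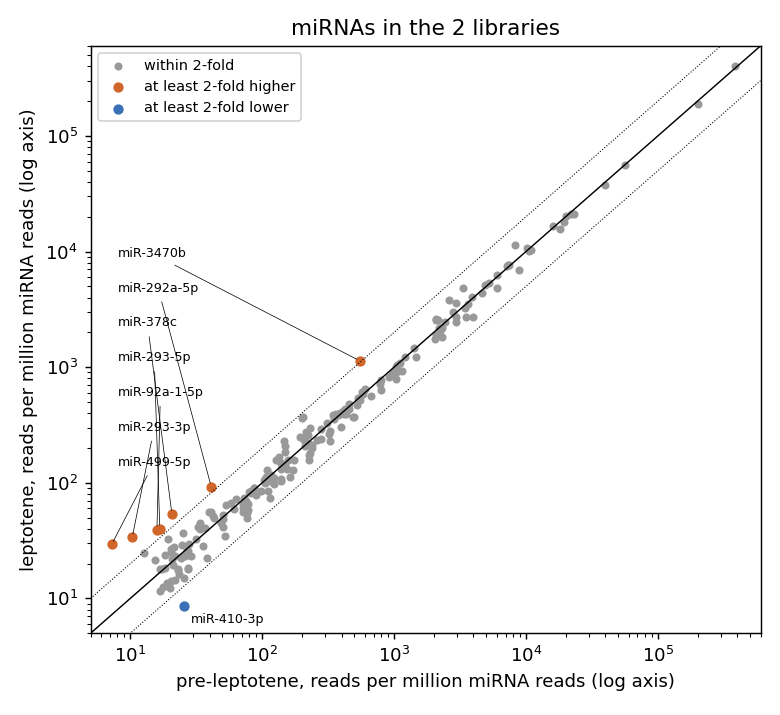
Each of the 212 miRNAs by its level in pre-leptotene and in leptotene, in reads per 1000000 miRNA reads on log axes; the solid line marks equal levels and the dotted lines 2-fold. The 7 miRNAs above the upper dotted line and miR-410-3p below the lower one have at most 1133 reads per 1000000 in either library.

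The 7 higher miRNAs were mostly scarce. miR-499-5p, which lies in an intron of the myosin gene Myh7b, had 44 reads in pre-leptotene and 141 in leptotene (log2 2.02, 1.52 to 2.54), or 7.23 and 29.3 per 1000000. Its level was 15.8 per 1000000 in SSCs and 29.8 in zygotene. Reads assigned to miR-378c had 126 and 258 counts (1.37), and the passenger strand miR-92a-1-5p 97 and 189 (1.30). miR-3470b was the only one above 1000 per 1000000 in a library, with 551 and 1133 (1.04, 0.98 to 1.10). Only 2.42% and 2.48% of its reads had the 21 nt mature length, whereas 50.1% and 39.8% were of 24 nt. Whether these reads come from the miRNA hairpin was not tested. Counting its whole mature sequence alone, the log2 ratio was 1.27. Below the 2-fold line came miR-335-3p, with 1236 and 1789 reads (0.87), miR-3471 (0.86), miR-101a-3p (0.64) and the Hox cluster member miR-10a-5p, with 15894 and 18513 reads (0.56, 0.53 to 0.59).

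Members of the miR-290 to miR-295 cluster on chromosome 7, a cluster known from pluripotent stem cells, made up the other 3. miR-293-3p had 63 and 162 reads (log2 1.70, 1.27 to 2.15), its 5p arm 16.8 and 40.1 per 1000000 (1.26), and miR-292a-5p 250 and 447 (1.18). miR-295-3p, just under the line, had 77 and 120 (0.98). The list of this cluster with the miR-302 cluster had 4 of its 12 entries with reads past the filter, all 4 higher in leptotene, with a median of 1.22 against −0.04 for all miRNAs. That count partly follows from the filter, which miR-293-3p and miR-295-3p passed through their leptotene reads alone. Below the filter miR-294-3p had 29 and 55 reads, and miR-290a-5p went the other way with 94 and 45. In sum the list took 0.0121% of miRNA reads in pre-leptotene and 0.0240% in leptotene, against 0.0636% at zygotene and 0.536% for SSCs. The stem cell marker list, which shares members with it, took 0.0121% and 0.0155%, and the part of such cells in the result was not tested. Of its members outside the miR-290 cluster, miR-146a-5p was lower, with 435 and 311 reads (−0.14), and miR-222-3p too, with 11 and 3. Higher was miR-221-3p, with 21 and 38.

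Of the 10 lowest ratios, miR-410-3p alone passed 2-fold, and all 10 had under 1000 reads. miR-410-3p of the imprinted Dlk1-Dio3 cluster had 155 and 41 reads (log2 −1.58, −2.11 to −1.07), and no other of the 212 miRNAs was 2-fold lower. miR-3102-3p had 233 and 107 reads (−0.78), miR-350-5p 156 and 72 (−0.78), miR-188-3p 122 and 59 (−0.71), miR-3475-3p 469 and 239 (−0.63) and miR-181c-3p 696 and 359 (−0.62). The other 4 of the lowest 10, miR-322-5p, miR-15a-3p, miR-363-3p and miR-32-3p, were between −0.60 and −0.59. Smaller differences were also seen in abundant miRNAs, such as miR-880-3p with 24223 and 13189 reads (−0.54), miR-501-3p with 21248 and 13030 (−0.37) and miR-362-5p with 36893 and 23325 (−0.32).

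The fixed lists bear on families with a known place in the germ line. Of all 212 miRNAs, 98 were above equal level and 114 below, and the counts below are to be read beside that. The miR-506 family took 74.4% of miRNA reads in pre-leptotene and 74.8% in leptotene. Of its 29 measured members 12 were above and 17 below equal level, none by 2-fold, from −0.54 for miR-880-3p to 0.54 for miR-881-3p. The list of X-linked miRNAs outside that family, whose chromosome is silenced later in meiosis, had 10 of 16 members below equal level. Its median was −0.18 and its summed share 1.21% and 0.998%. The X-linked miR-3475-3p (−0.63) and miR-224-5p (−0.07) are not on that list. miR-183, miR-96 and miR-182, made from 1 precursor region, had log2 ratios of 0.47, 0.32 and 0.33, and summed to 1.24% and 1.66%. The let-7 and miR-98 list had 7 of 10 members below equal level with a median of −0.09. The miR-17-92 list and its 2 paralogues had 10 of 15 above with a median of 0.05, and the Dlk1-Dio3 list 9 of 11 above with a median of 0.06. miR-191 and miR-425, from 1 host gene, were both below, at −0.35 and −0.33.

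The miR-378 list had a median of 1.37, which is the value of miR-378c, its sole member past the filter, and summed to 0.00222% and 0.00574% of miRNA reads. Elsewhere the median log2 ratio was −0.16 for 6 members of the miR-99, miR-100 and miR-125 list and −0.03 for 6 of miR-30. It was −0.10 for 7 of the miR-15 and miR-16 list and −0.23 for 5 of miR-181. For the 2 of miR-10 it was 0.25, with miR-10a-5p at 0.56 and the more abundant miR-10b-5p at −0.07. For 2 of miR-26 it was 0.07. The miR-34 list, known for its rise later in meiosis, took 0.00465% and 0.00671% of miRNA reads in all. Its 1 member past the filter was miR-34a-5p, with 248 and 268 reads (0.45), and the list median is that value alone. The level of miR-34a-5p was higher in SSCs than at zygotene. Below the filter, miR-34b-5p had 0 and 11 reads and miR-449a-5p 11 and 9, too few to show a rise of these members. Scaled to all reads, every miRNA ratio falls by 0.23 on the log2 scale, which puts list medians between 0 and that size below equal level. The medians of the miR-290, miR-183, miR-378, miR-34 and miR-10 lists stay above it, that of miR-10 only just.

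Marker lists of other cells summed to similar shares in both libraries, except the scarce blood list, but members of a list could differ. The list for stromal, peritubular and Leydig cells, with 4 entries seen, took 0.863% of miRNA reads in pre-leptotene and 0.877% in leptotene, of which miR-21a-5p took 0.719% and 0.745%. miR-199a-3p/miR-199b-3p had 392 per 1000000 in both libraries. The Sertoli and gonadal list took 0.0153% and 0.0161%, led by miR-202-5p with 829 and 728 reads; 3 scarcer members went the other way, with 50 and 18 reads of miR-132-3p, 31 and 12 of miR-204-5p and 15 and 8 of miR-212-3p. The muscle and endothelial list had only miR-126a-3p seen, at 0.0141% in each library. Blood markers took 0.000854% and 0.00133%. Of these, miR-142a-5p had 5 and 17 reads, miR-142a-3p 36 and 40, miR-451a 7 in each library and miR-144-3p 4 and 0. The epithelial list took 0.0292% and 0.0312%. Within it miR-200b-3p (−0.42), miR-200c-3p (−0.68) and miR-429-3p (43 and 17 reads) were lower. Its members miR-203-3p (0.31), miR-141-3p (0.35), miR-200a-3p (0.38) and miR-205-5p (0.78) were higher. miR-9-5p took 0.0157% and 0.0158%. The list of later germ cells took 0.00652% and 0.00765%, with 0 and 11 reads of miR-34b-5p. No miRNA on these lists separates pre-leptotene from leptotene cells, so the 2 stage labels could not be checked against markers.

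miRNA ends were nearly the same in the 2 libraries. For 104 miRNAs with at least 1000 reads in each, the mean read length differed by a median of −0.01 nt, from −0.34 nt for miR-541-5p to 0.22 nt for miR-374b-5p. After miR-541-5p the largest shortenings were those of miR-3470b, miR-31-5p, miR-128-3p and miR-181d-5p, and before miR-374b-5p the largest lengthenings were those of miR-146b-5p, miR-335-5p, miR-3471 and miR-17-5p. miR-146b-5p, with 17929 and 17174 reads, had 61.7% of its reads at 24 nt in pre-leptotene and 69.4% in leptotene. miR-335-5p changed its main length, from 21 nt with 44.1% of reads to 23 nt with 42.2%.

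Added 3′ bases, not found in the hairpin, were carried by a median of 10.3% of reads per miRNA in pre-leptotene and 10.8% in leptotene over 99 miRNAs with a hairpin in the reference. Added T alone had a median of 4.73% and 4.66%, and added A alone 1.20% and 1.07%. The share was lower in leptotene by most in miR-335-3p, from 31.2% to 21.2%, and then in miR-339-5p (34.8% to 29.4%), miR-181d-5p (23.6% to 18.7%), miR-871-5p (33.004% to 28.7%) and miR-881-3p (14.6% to 10.6%). It was higher by most in miR-672-5p, from 8.78% to 15.1%, where T alone went from 4.78% to 11.9%. Next came miR-3471, miR-470-3p, miR-17-5p and miR-484. miR-335 stood apart in its arms too: the 5p arm gave 65.5% of its reads in pre-leptotene and 51.3% in leptotene, the widest change among 54 hairpins with both arms measured.

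Starts were also stable, with a median share of 0.481% and 0.594% of reads at another base. miR-741-3p carried 2 further starts that change its seed, shown with the seed in capitals.
miR-741-3p start +1: gAGAGATGccattctatgtaga
miR-741-3p start +2: aGAGATGCcattctatgtaga
The form starting 1 base later gave 2.60% of its reads in pre-leptotene and 2.505% in leptotene. The form starting 2 bases later gave 10.8% and 11.4%, with 271267 and 237507 reads of the tag shown, more than all but 3 miRNAs had in full. Among strongly expressed miRNAs the widest changes were in miR-192-5p, whose start 1 base later went from 22.8% to 18.2%, and miR-10a-5p, where it went from 22.9% to 25.96%.

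tRNA and rRNA fragments together took 12.6% of the pre-leptotene library and 13.9% of the leptotene library, but 23.4% and 22.9% of the reads outside miRNAs, so their direction turned with the denominator. On that second scale each log2 ratio below falls by a further 0.18, which also turns the second glycine copy. Within them, single families moved in opposite directions. tRNA-Glu-CTC 5′ fragments had 13248 and 23016 reads (log2 0.90 per 1000000 of all reads, 0.87 to 0.93), and tRNA-Gly-GCC 186376 and 245727 (0.50). The second glycine GCC copy, which carries T5G counted from the 5′ end, had 274171 and 266010 reads (0.06), and tRNA-Gly-CCC 225300 and 191379 (−0.13). tRNA-Val had 193447 and 134062 reads (−0.42). tRNA-Lys-CTT had a log2 ratio of 0.36, tRNA-Lys-TTT −0.08, tRNA-His-GTG 0.25, tRNA-Asp-GTC 0.41 and tRNA-Glu-TTC 0.31.

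Fragment length differed as well as level. The 32 nt form of tRNA-Gly-GCC made up 61.1% of the family in pre-leptotene and 50.1% in leptotene, and shorter forms 30.2% and 39.7%. In the second copy the 32 nt form went from 74.4% to 65.7%. tRNA-Gly-CCC moved less, from 60.2% to 56.8%, and its mean length was 31.4 nt and 31.5 nt. In tRNA-Val the 33 nt form went from 56.3% to 51.1%. The valine family also split by base 22: tags with G there had 104587 and 59453 reads (log2 −0.71), and those with T 83979 and 69159 (−0.18), so T22G took 55.4% of such reads in pre-leptotene and 46.2% in leptotene. Around base 6 of tRNA-Gly-GCC, tags with G6T were 4.36% and 6.83% of the forms counted, and tags lacking 1 base there 19.2% and 18.2%.

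**Figure D5:**
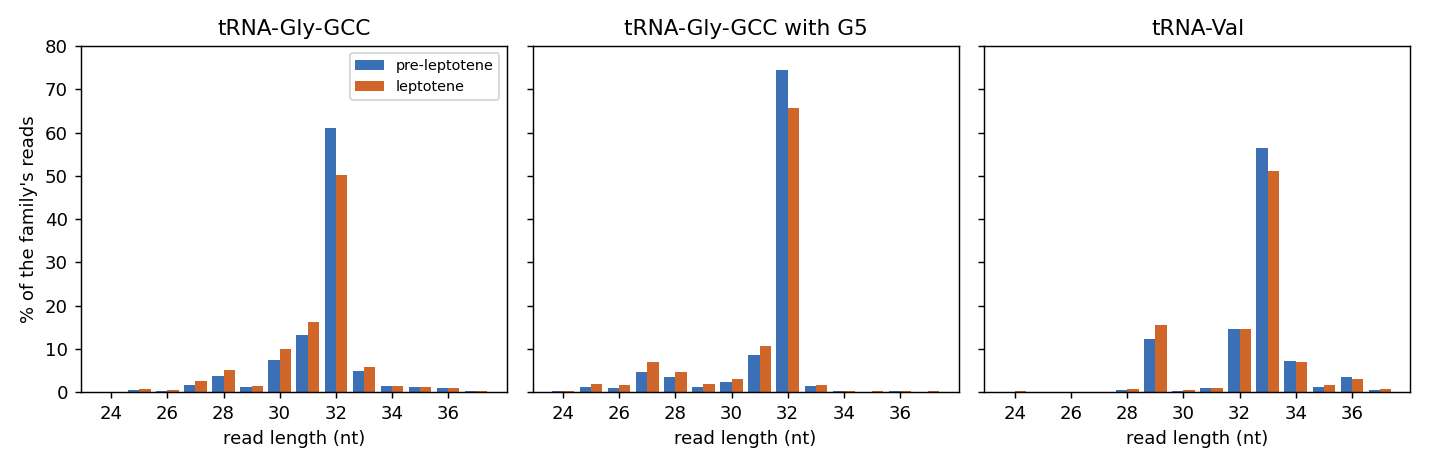
Percent of each 5′ tRNA fragment family's reads at each length from 24 to 37 nt, in pre-leptotene (blue) and leptotene (orange). The main length, 32 nt for both glycine families and 33 nt for valine, holds less of the family in leptotene in all 3 panels.

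Fragments from the 3′ ends of tRNAs, which carry the added CCA, summed to 91201 reads in pre-leptotene and 111920 in leptotene, a log2 ratio of 0.40. The most abundant is shown with tRNA position 58 in capitals, a conserved adenine of the T loop that is often methylated.
3′ CCA fragment: tcgTttcccggccaatgcacca
It had 21221 and 31311 reads. Over all 22 nt CCA fragments, T stood at position 58 in 79.4% of reads in pre-leptotene and 76.6% in leptotene, and over longer ones in 26.5% and 27.9%. Mitochondrial tRNA fragments had 3121 and 5353 reads, a log2 ratio of 0.88.

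Ribosomal fragments took 3.96% of the pre-leptotene library and 4.73% of the leptotene library. 5S rRNA, transcribed apart from the other rRNAs, had 144622 and 196038 reads (log2 0.54), and most of this came from tags at its 3′ end, with 113388 and 161783 reads (0.62). 5.8S rRNA fragments had a log2 ratio of 0.44. Fragments of the first part of 28S rRNA were level, at −0.03, and those at its exact 5′ end had 188730 and 148600 reads (−0.24). Mitochondrial rRNA had 4745 and 5338 reads (0.27).

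Beside the neighbouring stages, the leptotene library lay between pre-leptotene and zygotene in the B1 and stem-loop sums above and in 3 shares. Of all classes together, 25 to 32 nt reads made up 21.2%, 27.5% and 33.7% across the 3 stages, against 50.6% for cultured SSCs. The share of these that start with T was 37.7%, 44.97%, 58.2% and 64.0% in the same order. miRNA reads took 46.2%, 39.3%, 28.9% and 25.3%. On all 3 shares the pre-leptotene library was thus the farthest from SSCs.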

How the data were processed

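Small RNA libraries were sequenced from total RNA; each deposited file lists the distinct tags of 1 library with raw read counts made by the authors. The submitters' processing notes name Bowtie and mm10 (GRCm38); adapter and quality steps are not given in the sources used here. Tags were assigned in a fixed order: miRNAs (18 to 26 nt, first 18 nt of a RefSeq mature sequence), hairpins, tRNA, rRNA, then exact matches to GENCODE M21 transcripts, which replaced the planned genome match because no genome sequence was used here. A miRNA, tag or gene was compared where 1 library had at least 100 reads, and called at 2-fold; a count of 0 was set to 3. Intervals are exact binomial at 95%, computed with SciPy 1.17.1; calculations were tested on simulated data. edgeR 4.0.16 and DESeq2 1.42.0 gave scaling factors only. A sequence could be read for 35 of 430 RefSeq tRNA genes (from GENCODE exons or RefSeq promoter windows), so 5′ fragment families were joined by their first 18 nt and named by the anticodon in longer reads.

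Named miRNAs are the 10 largest rises and falls and the 10 most abundant of each library; named 3′ forms are the 5 largest shifts each way. The members, lists and thresholds were chosen with earlier results of these data known. Sums by gene, the histone and B1 sets, first-20-nt sums and opposite-strand pairs were added after the data were seen.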

Additional observations from a re-analysis of the deposited data

How the results depend on the processing

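No paired analysis was possible because each stage has 1 library; leaving a replicate out was not possible either. The share of tRNA and rRNA reads reversed from a difference of 1.35 percentage points to −0.448 per reads outside miRNAs, by that denominator's construction, and was 1.26 with a match of the first 18 nt. Counts of 2-fold miRNAs (7 higher, 1 lower) rested on the filter: 1 higher and 0 lower with at least 1000 reads, 50 and 58 with at least 10, 81 and 73 with more than 3, 4 and 2 with whole mature sequences, and 5 and 3 when scaled to all reads. The difference in 25 to 32 nt reads (6.28 points) was 8.06 without miRNA, tRNA and rRNA, 5.802 for 26 to 31 nt, and 5.86 or 5.81 over distinct tags, as deposited or thinned. The difference in first-base T (7.26 points) was 6.52 without tRNA and rRNA, 7.01 for 26 to 31 nt, 6.27 over distinct tags and 7.55 without the 100 most abundant. Shared tags differed by −6.44 points, and by −6.04 as deposited, −7.72 from 2 reads and −5.65 from 10. Chosen after seeing the data, scaling to reads outside miRNAs, tRNA and rRNA gave 506 genes higher and 40 lower, 285 higher among those with at least 80% T, a histone log2 ratio of −0.90 and a B1 log2 ratio of 1.56; scaling to 25 to 32 nt reads gave 406, 59, 227, −1.05 and 1.41. The filter of 100 reads in pre-leptotene, also chosen after seeing the data, took single tags from 23.3% to 8.13% higher. The cause of these movements was not tested. Scarce miRNAs and genes are limited by counts near 100.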
